A study of Mus musculus with 6 samples.

Results

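The genes described are 7 of those that write, maintain or oxidise cytosine methylation in mammals. They are the DNA methyltransferase genes Dnmt1, Dnmt3a and Dnmt3b, the maintenance cofactor gene Uhrf1, and the Tet dioxygenase genes Tet1, Tet2 and Tet3. They were chosen by symbol, and all 7 were found among the 55291 genes of the deposited table. Transcripts were measured by poly(A) RNA sequencing in cultured mouse BMDM, macrophages that differentiate from bone marrow precursors. Of 6 libraries, 3 came from cells without apoptotic cell (AC) treatment and 3 from cells with AC pretreatment. For the mice, strain, genotype, age and sex were not stated in the sources used here, and neither were source, amount and duration for the apoptotic cells. The labels do not say whether a replicate is its own culture or animal, and p-values therefore cover only library-to-library spread, which could be technical.

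Methylation of cytosine in CpG dinucleotides is copied after DNA replication and can be removed by oxidation. DNMT1 is the maintenance enzyme, and UHRF1 brings it to replicated DNA by binding hemimethylated CpG sites and modified histones. DNMT3A and DNMT3B place methyl groups at sites that had none. The TET enzymes use oxygen, iron and alpha-ketoglutarate to oxidise the methyl group, which leads to its loss by dilution or by excision repair. In blood and macrophages TET2 and DNMT3A are known as regulators of differentiation and of inflammatory gene expression, while TET1, DNMT3B and the DNMT3 cofactor DNMT3L are best known from pluripotent and germ cells.

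The promoters of the members differ in CpG content and in matches to the binding letters of E2F factors, the transcription factors of the G1 to S transition. RefSeq promoter windows on GRCm38.p6, the assembly of mm10, run from 250 bases before to 50 bases after a start, and 12 windows matched the 7 members. For genes with several windows the one with the most CpG is shown for Dnmt1 and Uhrf1, the maintenance pair. Tet2 is shown because it has the most CpG of the 12 windows, and Tet1 because its transcript was nearly absent. Capitals in Dnmt1 (chr9:20952574-20952873, minus strand) and Uhrf1 (chr17:56304063-56304362, plus strand) mark exact matches, on either strand, to TTTGGCGC, TTTCCCGC, TTTCGCGC or TTTGCCGC. Capitals in Tet2 (chr3:133544341-133544640, minus strand) mark a run of 25 bases that occurs in 3 copies. Tet1 (chr10:62887275-62887574, minus strand) has no E2F-like match and no capitals.
Dnmt1: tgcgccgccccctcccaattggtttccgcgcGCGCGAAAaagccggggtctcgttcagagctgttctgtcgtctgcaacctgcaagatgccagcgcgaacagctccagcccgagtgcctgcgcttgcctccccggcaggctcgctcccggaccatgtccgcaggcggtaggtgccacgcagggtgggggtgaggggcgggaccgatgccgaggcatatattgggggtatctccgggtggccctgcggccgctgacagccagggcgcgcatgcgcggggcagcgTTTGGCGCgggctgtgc
Uhrf1: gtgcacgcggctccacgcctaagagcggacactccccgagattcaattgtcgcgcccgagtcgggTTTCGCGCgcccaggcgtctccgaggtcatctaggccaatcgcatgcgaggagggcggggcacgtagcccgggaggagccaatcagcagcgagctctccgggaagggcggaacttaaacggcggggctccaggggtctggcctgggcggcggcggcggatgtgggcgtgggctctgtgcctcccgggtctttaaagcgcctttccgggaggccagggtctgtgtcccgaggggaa
Tet2: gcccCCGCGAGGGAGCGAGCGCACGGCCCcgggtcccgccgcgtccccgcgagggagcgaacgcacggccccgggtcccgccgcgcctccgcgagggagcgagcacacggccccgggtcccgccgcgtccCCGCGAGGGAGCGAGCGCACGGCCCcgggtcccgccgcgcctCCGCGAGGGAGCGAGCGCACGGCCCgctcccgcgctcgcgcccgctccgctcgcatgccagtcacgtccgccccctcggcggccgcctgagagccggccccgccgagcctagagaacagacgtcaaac
Tet1: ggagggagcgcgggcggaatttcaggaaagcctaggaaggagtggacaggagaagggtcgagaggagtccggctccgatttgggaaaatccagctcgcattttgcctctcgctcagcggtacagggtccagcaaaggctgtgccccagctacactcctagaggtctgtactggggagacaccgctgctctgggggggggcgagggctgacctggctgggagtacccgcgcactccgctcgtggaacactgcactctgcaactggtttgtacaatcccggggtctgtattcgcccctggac

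The Dnmt1 window held 2 E2F-like matches, at 219 bases before the start on the opposite strand and at position 34 after it. The Uhrf1 window held 1, at 185 bases before the start. These positions are counted from the start of the window shown. For both genes the matches lie downstream of the gene's other starts. The other 10 member windows held none. Of all 32851 windows, 2.26% held at least 1 match. Each searched string contains a CpG, and the Dnmt1 and Uhrf1 windows shown had more CpG than 91.4% of windows. The share is therefore not one among windows of like CpG content. A match is a description of the letters only. The Dnmt1 and Uhrf1 windows each had 33 CpG, the Tet2 window 57, the Tet1 window 17 and the Tet3 window 22, against a median of 7 over all windows. The Dnmt3b window had 30, and the Dnmt3a window with the most had 47. By CpG number the shown Tet2 window was above 99.8% of all windows and the Tet1 window above 68.6%. The only windows of Tet1 and Tet3 lie inside the annotated spans of these genes, downstream of upstream ends at 62908996 and 83459084. Their CpG numbers are those of these internal windows, not of the upstream gene ends.

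Levels are given in TPM, a gene's length-scaled share of the reads, set so that the genes of a library sum to 1000000. Library depth, recovered from the values, lay between 19330000 and 32649000 reads. All 8 macrophage markers reached 1 TPM, and their summed level was 11077.1 TPM in untreated replicate 1 against 19186.1 to 23211.1 TPM in the other 5 libraries. Untreated replicate 1 also had the highest neutrophil sum. Other cell types were low: 11 of 12 T cell and thymocyte markers, 5 of 6 progenitor markers and 6 of 7 pluripotent and germline markers stayed below 1 TPM in all libraries. The markers Cd3d, Cd8b1, Themis, Pou5f1, Nanog and Lin28a were at 0 in all 6. B cell and neutrophil markers summed to between 75.0 and 102.0 TPM and between 20.3 and 48.5 TPM, and epithelial markers to 0.650 to 1.71 TPM in untreated and 2.10 to 5.18 TPM in AC libraries. Placental genes, known from trophoblast, summed to 22.2 and 48.8 TPM in untreated replicates 1 and 2, to 43.8 and 206.0 TPM in AC replicates 1 and 2, and to 0.0 and 0.423 TPM in replicate 3 of each group. The libraries therefore fall into a set of 4 with these transcripts and a set of 2 without, and differences inside each set are given beside the results. Erythroid markers summed to 1.65, 3.47, 6.66 and 17.5 TPM in the 4 libraries with placental transcripts and to 0.0652 and 0.357 TPM in the 2 without. With 1 library a group the second set allows no test, and the part of the placental and erythroid transcripts in the results was not tested. AC replicates 1 and 3 also stood apart from each other in a trend with transcript length, described with the spread of the members.

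The family divided into 5 genes that were plainly expressed and 2 that were not. Dnmt1 had the highest mean over the 6 libraries, 51.9 TPM, followed by Dnmt3a at 45.2 TPM, Tet3 at 20.1 TPM, Uhrf1 at 17.2 TPM, Tet2 at 7.09 TPM, Dnmt3b at 0.893 TPM and Tet1 at 0.00849 TPM. The ranges of Dnmt1 and Dnmt3a overlapped, with Dnmt1 above Dnmt3a in 4 of 6 libraries, so the order of these neighbours did not go beyond their spread. Those 4 were the libraries with placental transcripts. The ranges of Tet3 and Uhrf1 overlapped too, with Tet3 above in 5 of 6 libraries. Uhrf1 was above Tet2 inside each of the 6 libraries, although their ranges overlapped between libraries. Dnmt3a and Tet3, Tet2 and Dnmt3b, and Dnmt3b and Tet1 had ranges that did not overlap. Among genes above 0 in some library, the mean of Dnmt1 was above 89.1% and that of Tet2 above 65.6%. The length in these levels is that of all annotated exons of a gene merged, 7377 bases for Dnmt1 and 16642 for Dnmt3a. In reads Dnmt3a had the more, 34334 against 17863 over the 6 libraries. The order of the genes, and ratios between them, depend on these lengths.

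**Figure D1:**
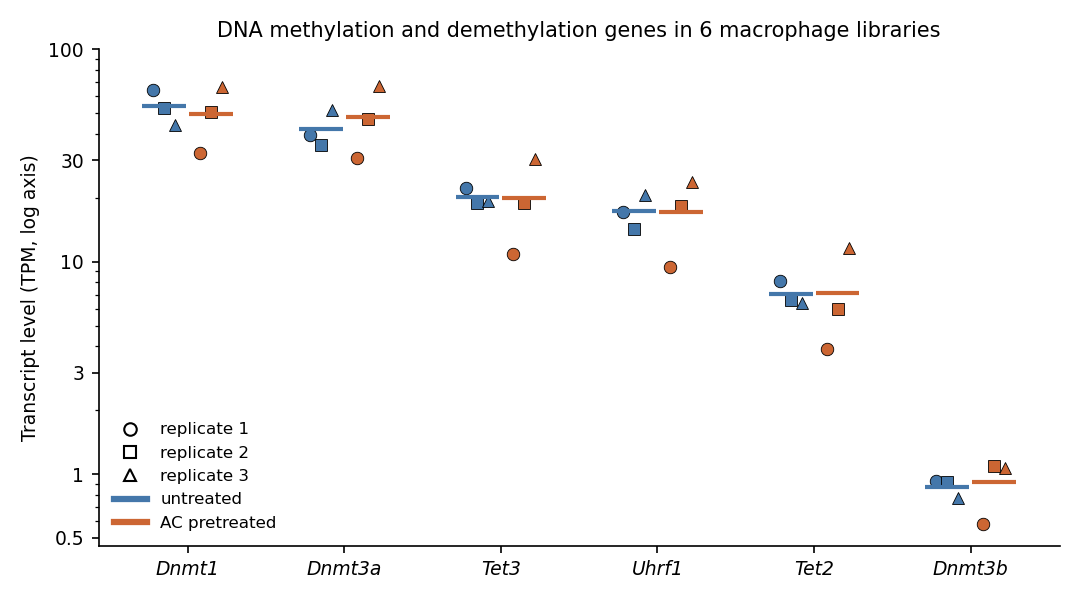
Levels of the 6 members with reads in every library, in TPM on a log axis, with 1 point per library and bars at the group means (n = 3 each). The circle of AC replicate 1 is the lowest point for each gene, and the triangle of AC replicate 3 is the highest for Dnmt1, Dnmt3a, Tet3, Uhrf1 and Tet2.

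No member differed between AC pretreated and untreated macrophages beyond the spread of the libraries. Of the 5 members that reached 1 TPM in 3 libraries or more, 0 passed limma at an adjusted p under 0.05, where the background over 12603 genes was 0.00%. At an unadjusted p under 0.05 there were 0 of 5, against 1.30% of all genes. The groups did not overlap for 0 of 5, against 4.42% of all genes. Means of log2(TPM + 1) after AC pretreatment were lower for 4 of 5, against 70.6% of all genes, and higher for 1 of 5, against 29.4%, and the median log2 difference of the 5 was -0.09, against -0.07 over all genes. Each log2 difference subtracts the untreated from the AC mean of log2(TPM + 1), a scale that compresses low genes, and those tested over all 6 libraries are given ± SE. Without untreated replicate 1 the differences lay between -0.09 for Uhrf1 and 0.10 for Dnmt3a, and that of Tet2 turned to 0.01. In bulk RNA a change in the number of cells that express a gene and a change in RNA per cell cannot be told apart.

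Dnmt1 (chromosome 9, 20907209 to 20959888, minus strand, mm10; ENSMUSG00000004099.16) stood at 64.4, 53.0 and 44.2 TPM in untreated replicates 1, 2 and 3 and at 32.3, 50.9 and 66.3 TPM in AC replicates 1, 2 and 3. Both the lowest and the highest library were AC pretreated, and the untreated values lay between them. The means were 53.9 ± 10.1 and 49.8 ± 17.0 TPM (SD, n = 3 each). The log2 difference was -0.15 ± 0.26 (95% interval -0.75 to 0.45, adjusted p = 1.0 by limma), and the interval spans 0.593-fold to 1.37-fold. It was -0.52 among the 4 libraries that held placental genes and 0.58 between the 2 that did not, so the direction turned between the sets. Without AC replicate 1 it was 0.12. That library, the lowest, is in the first set, and AC replicate 3, the highest, is in the second. The sets and the spread between these AC libraries therefore cannot be told apart, here or for the other tested members.

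Uhrf1 (chromosome 17, 56303321 to 56323486, plus strand; ENSMUSG00000001228.14), whose protein recruits DNMT1, stood at 17.1, 14.2 and 20.7 TPM in untreated replicates 1, 2 and 3 and at 9.47, 18.2 and 23.6 TPM in the AC replicates. The AC values again enclosed the untreated ones. The means were 17.3 ± 3.28 and 17.1 ± 7.11 TPM, with a log2 difference of -0.09 ± 0.31 (95% interval -0.80 to 0.62, adjusted p = 1.0 by limma). The difference was -0.23 in the set with placental transcripts and 0.18 between the 2 libraries without. Without AC replicate 1 it was 0.26, and without untreated replicate 3 it was 0.04.

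Dnmt3a (chromosome 12, 3806007 to 3914443, plus strand; ENSMUSG00000020661.15), which encodes a de novo methyltransferase, stood at 39.6, 35.5 and 51.5 TPM in untreated replicates 1, 2 and 3 and at 30.8, 46.9 and 66.9 TPM in the AC replicates. The means were 42.2 ± 8.31 TPM untreated and 48.2 ± 18.1 TPM after AC pretreatment, and the groups overlapped. Of the 5 tested members it was the 1 with a higher AC mean on the log2 scale. The log2 difference was 0.14 ± 0.27 (95% interval -0.49 to 0.77, adjusted p = 1.0 by limma). It was 0.02 in the set with placental transcripts and 0.37 between the 2 libraries without, and turned to -0.13 without AC replicate 3. The antisense gene Dnmt3aos, at 7.48 to 14.6 TPM, shares 133 exon bases with Dnmt3a, and the strand setting of the counting is not given, so reads there cannot be told apart. They are a small part of the 16642 exon bases of Dnmt3a.

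Dnmt3b (chromosome 2, 153649450 to 153687730, plus strand; ENSMUSG00000027478.15), the related enzyme of early development, was low, and below 1 TPM in 4 of 6 libraries. It stood at 0.926, 0.922 and 0.767 TPM in untreated replicates 1, 2 and 3 and at 0.583, 1.09 and 1.07 TPM in the AC replicates, from 25 to 51 reads per library. The group means were 0.872 ± 0.0909 and 0.914 ± 0.287 TPM (exact permutation p = 1.0, 2-sided, n = 3 each, where 0.1 is the smallest p this design allows). The gene did not pass the filter on low values and had no adjusted p. Dnmt3l, which encodes the catalytically inactive partner of the DNMT3 enzymes, reached at most 0.0309 TPM.

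Tet2 (chromosome 3, 133463679 to 133545139, minus strand; ENSMUSG00000040943.12) stood at 8.13, 6.61 and 6.36 TPM in untreated replicates 1, 2 and 3 and at 3.86, 5.96 and 11.6 TPM in the AC replicates. The untreated libraries lay close together, and AC replicates 1 and 3 lay outside them on either side. The means were 7.03 ± 0.958 and 7.15 ± 4.02 TPM, and the log2 difference was -0.09 ± 0.33 (95% interval -0.85 to 0.67, adjusted p = 1.0 by limma). On the TPM scale the AC mean was the higher and on the log2 scale the lower, so no direction can be given. The difference was -0.52 in the set with placental transcripts and 0.78 between the 2 libraries without. It was 0.23 without AC replicate 1 and 0.01 without untreated replicate 1.

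Tet3 (chromosome 6, 83362373 to 83459084, minus strand; ENSMUSG00000034832.15) was the most abundant Tet transcript, at 22.2, 18.9 and 19.3 TPM in untreated replicates 1, 2 and 3 and 10.9, 18.9 and 30.3 TPM in the AC replicates. Its untreated coefficient of variation, 8.83%, was the lowest of the 5 tested members, and its AC value was 48.8%. The means were 20.1 ± 1.78 and 20.0 ± 9.76 TPM, with a log2 difference of -0.11 ± 0.32 (95% interval -0.84 to 0.61, adjusted p = 1.0 by limma). The difference was -0.48 in the set with placental transcripts and 0.62 between the other 2 libraries, and 0.24 without AC replicate 1.

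Tet1 (chromosome 10, 62804570 to 62908996, minus strand; ENSMUSG00000047146.17) had 5 reads in untreated replicate 1, 1 read in untreated replicate 2 and 0 in the other 4 libraries. These gave 0.0450 and 0.00597 TPM. In the libraries with 0 reads, 3 reads would have given 0.0214 to 0.0304 TPM, which is the upper limit a count of 0 allows, for counting error only. The difference between the groups was not detectable at this depth.

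**Figure D2:**
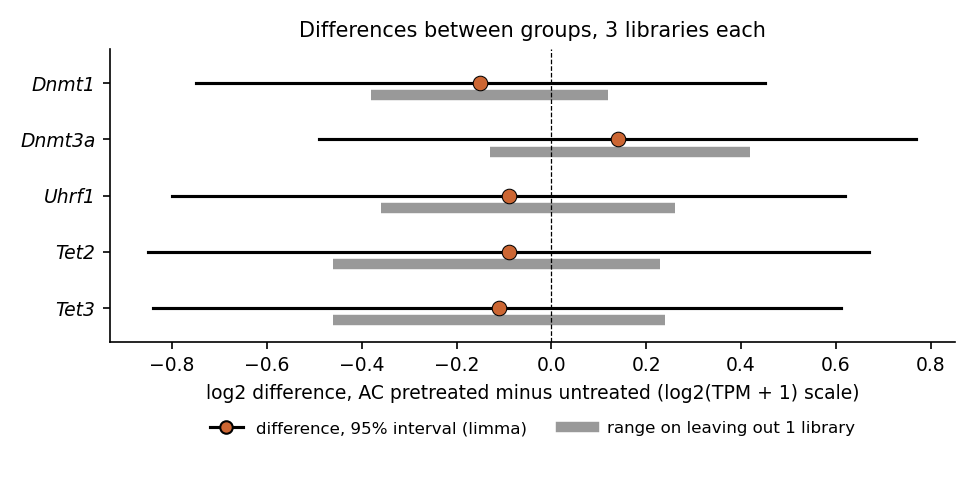
Log2 differences of the 5 tested members, AC pretreated minus untreated, in log2(TPM + 1), with 95% intervals from limma (black) and the range on leaving out each of the 6 libraries in turn (grey). All 5 intervals and all 5 grey ranges include 0.

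The spread of the members inside the AC group was larger than their differences between groups, and other genes shared it in part. AC replicate 1 was the lowest of the 6 libraries for 5 of 5 tested members, against 47.0% of all tested genes. AC replicate 3 was the highest for 5 of 5, against 24.9%, and 19.4% of all tested genes had both. From AC replicate 1 to AC replicate 3, Dnmt1 differed 2.05-fold, Dnmt3a 2.17-fold, Uhrf1 2.49-fold, Tet3 2.79-fold and Tet2 3.01-fold. The corresponding log2 differences were 1.01, 1.09, 1.23, 1.40 and 1.38, and each was larger than that of at least 90.4% of tested genes. Over all tested genes the median was 0.22. For lists described below it was 0.70 for methyl-CpG readers, 0.72 for targeting and partner genes and 0.73 for S phase genes. It was 0.55 for the S-adenosylmethionine and folate cycle, 0.46 for removal of oxidised or deaminated cytosine and 0.16 for TET cofactors. The 7 members together summed to 87.9 TPM in AC replicate 1, 141.9 in AC replicate 2 and 199.8 in AC replicate 3, against 129.1 to 152.4 TPM in the untreated libraries. AC replicate 2 lay inside the untreated range for 3 of the 5 tested members, and just outside it for Tet2 and Tet3. The SD of log2 values was 0.12 in untreated and 0.70 in AC libraries for Tet3, and 0.27 and 0.51 for Dnmt1. Over all genes the median SD was 0.16 in untreated and 0.29 in AC libraries.

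Transcript length moved with this spread. The median log2 difference between AC replicates 3 and 1 was -0.22 for 2953 genes with merged exons under 2 kb, 0.10 for 4883 genes of 2 to 5 kb, 0.49 for 3567 genes of 5 to 10 kb and 0.80 for 980 genes of 10 kb and over. In the longest class 61.5% of genes had AC replicate 1 lowest and AC replicate 3 highest, against 6.60% in the shortest. Dnmt3a, Tet2 and Tet3 belong to the longest class, with exon lengths of 16642, 16870 and 16695 bases. Dnmt1 has 7377 bases and Uhrf1 4259. With each library's trend over length and GC content removed, the log2 difference between AC replicates 3 and 1 was 0.25 for Dnmt3a, 0.47 for Tet2, 0.58 for Tet3 and 0.55 for Dnmt1 on the log2 scale. It was 1.03 for Uhrf1, whose uncorrected value was 1.23. The group differences then lay between -0.06 for Dnmt1 and 0.21 for Dnmt3a, and 0 members passed limma.

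**Figure D3:**
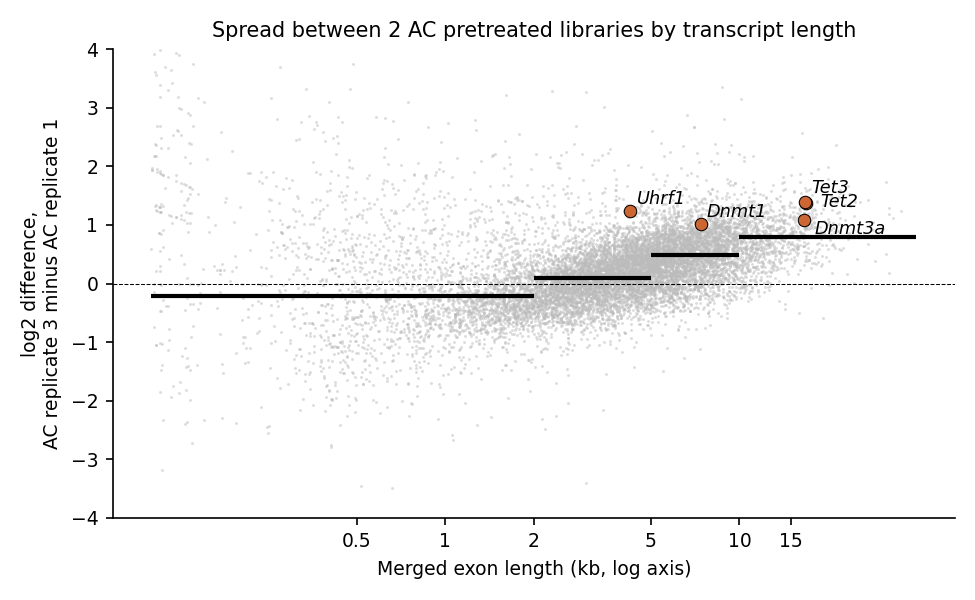
Log2 difference between AC replicates 3 and 1, on the log2(TPM + 1) scale, against merged exon length in kb (log axis) for 12214 tested genes (grey), with black lines at the medians of 4 length classes and the 5 tested members in orange. A further 389 genes had no matched length or lay outside the axes. The class medians go from -0.22 to 0.80 with length, and Uhrf1 lies at 1.23 in a class with a median of 0.10.

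Ratios between members inside a library, in which library size cancels, showed which members kept step. Tet3 over Tet2 was the steadiest, at 2.73, 2.86 and 3.04 in untreated replicates 1, 2 and 3 and 2.81, 3.16 and 2.60 in the AC replicates, a 1.21-fold range although each gene ranged over 2.79-fold and more. Tet2 and Tet3 are of nearly equal exon length. Dnmt3a is of nearly the same length too, and Tet3 over Dnmt3a ranged from 0.352 to 0.560, or 1.59-fold. Dnmt3a over Dnmt1 was 0.614, 0.670 and 1.17 in the untreated replicates, then 0.954, 0.922 and 1.01 with AC. Dnmt3a exceeded Dnmt1 only in untreated replicate 3, where the ratio was highest, and in AC replicate 3. These are the 2 libraries without placental transcripts. Uhrf1 over Dnmt1 was 0.266, 0.267 and 0.469 in the untreated replicates, then 0.293, 0.357 and 0.355 with AC, again with untreated replicate 3 highest. The sum of the Dnmt levels over the sum of the Tet levels was 3.57 ± 0.160 in untreated and 3.84 ± 0.577 in AC pretreated libraries (SD, n = 3 each), with overlapping groups, and methyltransferase transcripts exceeded Tet transcripts in every library.

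**Figure D4:**
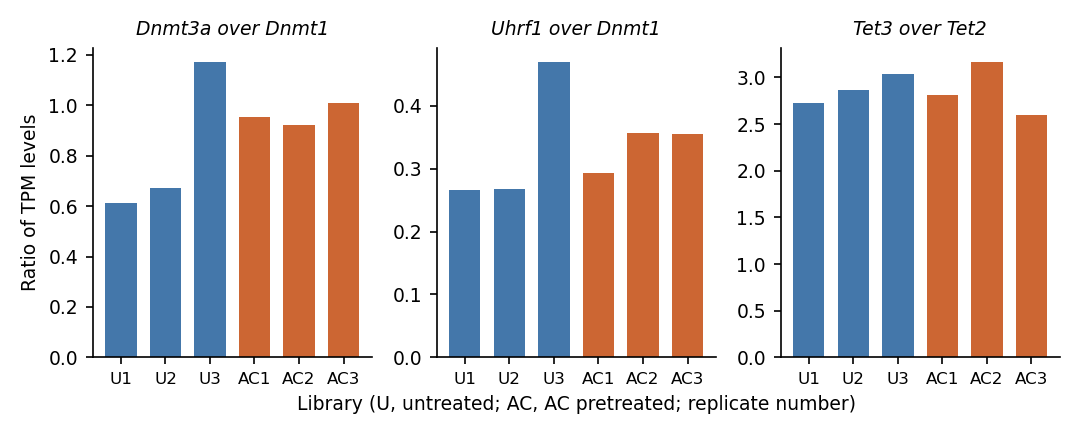
Ratios of TPM levels inside each library, with 1 bar per library for the 3 untreated (blue, U1 to U3) and the 3 AC pretreated (orange, AC1 to AC3) libraries. Tet3 over Tet2 stays between 2.60 and 3.16, while Dnmt3a over Dnmt1 and Uhrf1 over Dnmt1 are highest in untreated replicate 3, at 1.17 and 0.469.

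Other genes of the pathway were taken from lists by role, and 0 members of any list passed limma. Among 17 targeting and partner genes 13 were tested, 6 with higher and 7 with lower means after AC pretreatment (median log2 difference -0.01). Hells, a chromatin remodeller needed for normal methylation, averaged 3.39 ± 0.665 and 4.19 ± 1.99 TPM. Usp7, a deubiquitinase that binds DNMT1 and UHRF1, averaged 45.3 ± 1.72 and 43.5 ± 11.2 TPM. Cxxc1, which encodes a protein that binds unmethylated CpG, averaged 50.1 ± 8.76 and 45.2 ± 4.74 TPM. Trdmt1, a DNMT-like gene whose protein methylates tRNA, averaged 3.89 ± 0.411 and 4.09 ± 0.631 TPM.

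Of 11 methyl-CpG readers, 10 had lower means and 1 a higher one, with a median of -0.09. Mbd2, whose protein binds methylated CpG and recruits a repressive complex, was abundant at 174.0 ± 5.05 and 170.0 ± 17.8 TPM. Uhrf2, the paralog of Uhrf1 and counted here among the readers, was the more abundant of the pair, at 39.0 ± 4.04 and 38.9 ± 11.4 TPM. The readers Zbtb4, Mbd3 and Zbtb33 differed by -0.17 ± 0.25, -0.11 ± 0.16 and -0.20 ± 0.31 on the log2 scale. Of 17 tested genes for the removal of oxidised or deaminated cytosine, 12 were lower and 5 higher (median -0.10). Tdg, the glycosylase that excises oxidised products of the TET enzymes, averaged 13.2 ± 1.42 and 12.3 ± 2.27 TPM. Gadd45b, a stress-response gene linked to demethylation, averaged 169.0 ± 24.0 and 135.0 ± 26.6 TPM, and the groups overlapped. Apobec3, a cytidine deaminase gene, and Parp1, a gene of strand-break repair, differed by -0.29 ± 0.18 and -0.23 ± 0.15.

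Genes that supply substrates had mostly lower means too, as did 70.6% of all genes. Of 15 genes of the S-adenosylmethionine and folate cycle, which makes the methyl donor, 12 were lower and 3 higher (median -0.10). Mtrr, which encodes methionine synthase reductase, stood at 13.6, 11.6 and 11.6 TPM in the untreated replicates, then 7.51, 10.7 and 11.4 TPM with AC. Its groups did not overlap, with a log2 difference of -0.30 ± 0.20 (95% interval -0.76 to 0.15, adjusted p = 1.0 by limma), and it was the 1 of the 15 genes for which this held, against 4.42% of all genes. Shmt2 and Mthfd2, of mitochondrial folate metabolism, differed by -0.19 ± 0.17 and -0.25 ± 0.24. Of 13 genes around alpha-ketoglutarate and the other cofactors of the TET enzymes, 10 were lower and 3 higher (median -0.05). Idh2 and Idh3g, whose enzymes make alpha-ketoglutarate, differed by -0.13 ± 0.14 and -0.15 ± 0.15, and Sdha, whose enzyme consumes succinate, by -0.15 ± 0.13.

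Dnmt1 and Uhrf1 are known to be transcribed with the S phase programme, so proliferation genes are given beside them. Of 23 tested, 19 had lower means and 4 higher (median -0.10), and 0 passed. Mki67, a marker of cycling cells, stood at 9.25, 6.80 and 4.96 TPM in untreated replicates 1, 2 and 3 and at 2.81, 6.45 and 8.79 TPM in the AC replicates. Its library order in the AC group was that of Dnmt1 and also that of the other tested members, Tet2 and Tet3 included. Top2a averaged 12.6 ± 1.68 and 11.5 ± 4.09 TPM, and Mcm5, of the replicative helicase, 36.1 ± 6.61 and 33.0 ± 9.30 TPM. Pcna, the replication clamp gene, averaged 456.0 ± 85.1 and 462.0 ± 75.0 TPM and did not follow this order: its highest library was untreated replicate 3 at 554.0 TPM, and AC replicate 3 stood at 416.0 TPM. E2f1 and Ccna2 differed by -0.20 ± 0.17 and -0.33 ± 0.24. Rfc4, of the clamp loader, stood at 16.6 to 17.5 TPM in untreated and 13.8 to 15.4 TPM in AC libraries, and the groups differed by -0.22 ± 0.15 on the log2 scale (limma, adjusted p = 1.0). It was the 1 of the 23 genes whose groups did not overlap, against 4.42% of all genes. AC replicate 1 was lowest for 19 of the 23 genes, against 47.0% of all genes, and AC replicate 3 highest for 7, against 24.9%. Both held for 6 of the 23, against 19.4%.

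Genes whose levels over the 6 libraries were most like each member were found by Pearson correlation of log2(TPM + 1) among 8655 genes with a mean of at least 5 TPM. They were Tmem131, Mtmr9 and Med12 for Dnmt1, Utp25, Wapl and Edem3 for Uhrf1, and Mfhas1, C5ar2 and Gda for Dnmt3a. For Tet2 they were Herc2, Homer3 and Ankrd52, and for Tet3 Tbc1d1, Trim25 and Itpr1. Med12, which encodes a Mediator subunit, ranged from 14.8 TPM in AC replicate 1 to 52.4 TPM in AC replicate 3, and C5ar2, a complement receptor gene, from 9.72 to 19.1 TPM. Such likeness was common: 12.5% of the genes reached a coefficient of 0.9 with Dnmt1, 14.4% with Tet3, 12.7% with Uhrf1, 9.53% with Tet2 and 3.37% with Dnmt3a. With 6 libraries that differ in their trend with length, this is a description of the libraries.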

How the data were processed

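Per the labels' protocols, poly(A) RNA of 6 BMDM libraries was read as Illumina pairs. Tools in the submitters' processing notes are featureCounts 2.0.3, Subread and STAR 2.7.10a, with build mm10. Which annotation, strand setting or filter was used is not given in the sources used here. Values come as 1 table: the authors deposited a signal per gene and library, named TPM, whose columns sum to 54732 to 92831. Multiplied by GENCODE mouse release 21 exon length and divided by a shared factor of 8.56974, the signal gave whole reads in all libraries (tolerance 0.02) for 23429 of 23829 genes (98.3%). Each column was rescaled to 1000000. Genes with at least 1 TPM in 3 libraries were tested with limma 3.58.1 in R 4.3.3 (eBayes with trend) on log2(TPM + 1). Tests were 2-sided, Benjamini-Hochberg adjusted over all genes at 0.05. The test was tried on simulated data that held neither the length trend nor the AC spread of these libraries. The design was written for TPM and kept. All library pairs differed beyond sampling noise. Members and lists were chosen with earlier results of these data known. Named genes were the members, 11 set genes, the 3 smallest p of each list and the 3 genes most like each tested member. A gene that the rule names is not reported here. Dnmt3aos and the marker genes were added after values were seen. Sequences are RefSeq's. Alternatives are in the closing section. The length and GC correction and the fit without AC replicates 1 and 3 were chosen after seeing the data.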

Additional observations from a re-analysis of the deposited data

How the results depend on the processing

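With 3 libraries a group, the 95% intervals of the 5 tested members reach up to between 1.37-fold and 1.70-fold. They reach down to between 0.711-fold and 0.556-fold. These folds are of TPM + 1, and each interval is for 1 gene, without adjustment over the genes tested. They give the range of differences that the values allow, not the smallest difference that the test could call. No member passed at adjusted p under 0.05 in any of the fits run. The smallest adjusted p was 0.128, for Dnmt3a by limma with array quality weights and robust eBayes. The number of genes called was 0 by limma and 0 in each fit that left out 1 library (0 to 0). It was 1 without the mean-variance trend, 16 for the values as deposited, and 475 with array quality weights and robust eBayes together. Those weights gave AC replicate 1 a weight of 0.18 and untreated replicate 2 one of 7.24. By voom on the recovered reads it was 0, with 99 genes at an unadjusted p under 0.05, against 164 by limma-trend. Median-of-ratios scaling moved the median over all genes from -0.07 to -0.01 and turned no member.

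On leaving out 1 library the log2 difference ranged from -0.38 to 0.12 for Dnmt1, -0.13 to 0.42 for Dnmt3a, -0.36 to 0.26 for Uhrf1, -0.46 to 0.23 for Tet2, -0.46 to 0.24 for Tet3, -0.05 to 0.15 for Dnmt3b and -0.04 to 0.00 for Tet1. Between the 2 libraries without placental transcripts it turned to 0.58 for Dnmt1, 0.18 for Uhrf1, 0.78 for Tet2 and 0.62 for Tet3. The AC library of those 2 is AC replicate 3, so this turn and the spread inside the AC group cannot be told apart. Uhrf1 also turned with array quality weights and robust eBayes (0.27), and without AC replicates 1 and 3 (0.08). The latter fit assumes that the lone AC library varies like the untreated ones. The cause was not tested. For Tet1 a pseudocount of 0.1 TPM gave -0.21. Same-numbered replicates were not paired by the data: their deviations correlated at -0.06, 0.01 and 0.17. With the replicate number as a block 0 genes passed, and the differences were -0.15 for Dnmt1, 0.14 for Dnmt3a, -0.09 for Uhrf1, -0.09 for Tet2 and -0.11 for Tet3.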
